A study of Mus musculus with 18 samples.

Results

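The small heat shock protein genes Hspb1, Hspb2, Hspb3, Cryab, Hspb6, Hspb7 and Hspb8 were followed through isolated heart cells of mice with and without a mutant BAG3. They were taken by gene symbol, and all 7 stood among the 19094 protein-coding genes of the count table. The mutant mice carried a Bag3-P209L transgene (Tg+) and were set against Bag3-WT mice, with 3 mice of each genotype, all aged 16 months. Each heart gave a cardiomyocyte and a cardiac fibroblast preparation, and poly(A)-selected messenger RNA was sequenced in 18 libraries. Each mouse had 2 cardiomyocyte libraries, named rep1 and rep2, whose counts were added together, and 1 fibroblast library. The 4 groups were therefore Tg+ cardiomyocytes, Bag3-WT cardiomyocytes, Tg+ fibroblasts and Bag3-WT fibroblasts, each from 3 mice. The labels state neither the promoter nor the species of the transgene, nor whether Bag3 counts include its reads. Mice are numbered 1 to 3 within a genotype, and the same number pairs a mouse's own cardiomyocytes and fibroblasts but no mice across genotypes. The animal codes of Tg+ mouse 1 and Bag3-WT mouse 1 share their first part, which entered no fit.

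Small heat shock proteins share an alpha-crystallin domain, assemble into oligomers and hold unfolding proteins in a state that HSP70 can refold or hand over to degradation. In striated muscle they sit on actin, desmin, titin and filamin, and several are made mainly there. BAG3 binds small heat shock proteins through short IPV motifs and HSP70 through its BAG domain. HSPB8 is its best known partner, and the complex sends damaged filamin to autophagy (chaperone-assisted selective autophagy). The proline exchanged for leucine in P209L lies in an IPV motif of human BAG3, and the human mutation causes a myofibrillar myopathy.

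Counts were estimated per gene by the authors and are given here as TMM-scaled CPM (counts per 1e6 counts of a library, where TMM is edgeR's scaling between libraries), averaged as mean ± SD over mice. Columns held 10.9 to 17.2 M counts (M, 1e6) in cardiomyocytes and 17.3 to 61.3 M counts in fibroblasts. The 13 mitochondrial genes took 51.7% to 85.5% of cardiomyocyte counts and 16.7% to 74.2% of fibroblast counts. Nuclear genes were thus left with 2.26 to 7.79 M counts in cardiomyocytes and 11.3 to 15.8 M counts in fibroblasts. Both preparations held RNA of other cells. The summed level of 13 cardiomyocyte markers was 1349 to 3623 CPM in cardiomyocyte columns and 525 to 1354 CPM in fibroblast columns. The summed level of 12 fibroblast markers was 3564 to 9142 CPM in cardiomyocyte columns and 1873 to 7057 CPM in fibroblast columns. No marker of these 2 lists was at 0 in either preparation. The fibroblast list did not separate the preparations, since 2 of its 12 genes were called higher and 1 lower in cardiomyocytes. In bulk RNA, fewer cells of a type and less RNA per cell cannot be told apart.

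The upstream sequences bear on how these genes are known to be switched on, by heat shock factor HSF1 through GAA and TTC units or by muscle factors, and are shown for Hspb1, which was lower in cardiomyocytes, and for Hspb6 and Hspb7, which were higher there. RefSeq (GRCm38.p6) promoters matched 5 of the 7 genes, and Hspb2 and Cryab had no entry in the table. The 250 bases before the start are printed 5′ to 3′ for Hspb1, the second listed start of Hspb6 and Hspb7. Capitals mark every match to GAANNTTC, an inverted pair of heat shock units that reads alike on both strands.
Hspb1, chr5:135887669-135887918, plus strand: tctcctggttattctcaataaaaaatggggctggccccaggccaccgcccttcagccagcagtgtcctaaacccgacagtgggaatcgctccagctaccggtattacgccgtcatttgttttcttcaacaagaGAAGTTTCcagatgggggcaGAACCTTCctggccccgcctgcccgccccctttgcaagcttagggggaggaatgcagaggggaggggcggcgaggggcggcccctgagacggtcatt
Hspb6, chr7:30553051-30553300, plus strand: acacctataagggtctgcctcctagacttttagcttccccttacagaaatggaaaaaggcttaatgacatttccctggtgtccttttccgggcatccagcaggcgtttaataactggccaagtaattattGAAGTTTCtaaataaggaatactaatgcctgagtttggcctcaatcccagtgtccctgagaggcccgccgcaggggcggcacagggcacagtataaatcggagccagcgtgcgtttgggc
Hspb7, chr4:141420529-141420778, plus strand: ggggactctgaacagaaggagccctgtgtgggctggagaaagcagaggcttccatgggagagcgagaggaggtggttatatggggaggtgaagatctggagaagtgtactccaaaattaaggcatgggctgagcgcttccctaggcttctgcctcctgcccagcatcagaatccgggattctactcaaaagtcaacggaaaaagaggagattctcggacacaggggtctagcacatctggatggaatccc

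The Hspb1 window held 2 matches, GAAGTTTC from 117 to 110 and GAACCTTC from 97 to 90 bases before the start. The second Hspb6 start had GAAGTTTC from 120 to 113 bases before it. The Hspb7 and Hspb8 windows and that of the first Hspb6 start held neither GAANNTTC nor TTCNNGAA, which was searched as well. Hspb3 had GAATTTTC and, 12 to 3 bases before its start, a MEF2 site, the element bound by the muscle factor MEF2. Of 16959 promoter windows of the same length, 5.38% held GAANNTTC, 6.17% TTCNNGAA, 10.8% either of them, 2.06% a MEF2 site and 1.19% a CArG box, which none of these windows held. A match is a run of letters and was not tested as a binding site.

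Per kilobase of transcript, Hspb1 was the leading small heat shock protein gene of the fibroblast preparations, while Hspb1 and Cryab shared that place in cardiomyocytes. To set genes against each other, CPM was divided by the length of the longest coding transcript in GENCODE M21 (CPM per kilobase). In cardiomyocytes Hspb1 stood at 85.9 ± 26.9 and Cryab at 74.8 ± 19.6 CPM per kilobase (SD, n = 6), and their ranges overlapped. Hspb7 (32.7 ± 14.1) and Hspb6 (32.3 ± 11.6) followed and overlapped each other, and the highest Hspb7 value (49.97) lay below the lowest Cryab value (57.6). Hspb8 came next with 17.1 ± 3.17 CPM per kilobase and overlapped Hspb6 above it and Hspb2 (10.3 ± 5.40) below it. Hspb3 was last with 0.522 ± 0.459. The order depended on the division by length. In CPM, Hspb7 stood at 90.6 ± 39.1, Cryab at 83.5 ± 21.9 and Hspb1 at 79.9 ± 25.0 in cardiomyocytes, with overlapping ranges. Cryab was divided by 1117 bases, while its shortest coding transcript has 659.

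In fibroblasts Hspb1 stood at 140 ± 21.8 CPM per kilobase and its lowest column (113.5) lay above the highest Cryab column (40.8). Cryab averaged 25.1 ± 8.78 CPM per kilobase. Hspb6 (10.4 ± 3.02), Hspb8 (8.94 ± 1.46) and Hspb7 (8.52 ± 2.57) overlapped each other and lay below every Cryab column. Hspb2 had 1.59 ± 0.714 and Hspb3 0.232 ± 0.170 CPM per kilobase. The order of Hspb6, Hspb7 and Hspb8 in either cell type was thus not resolved by the spread between mice.

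**Figure D1:**
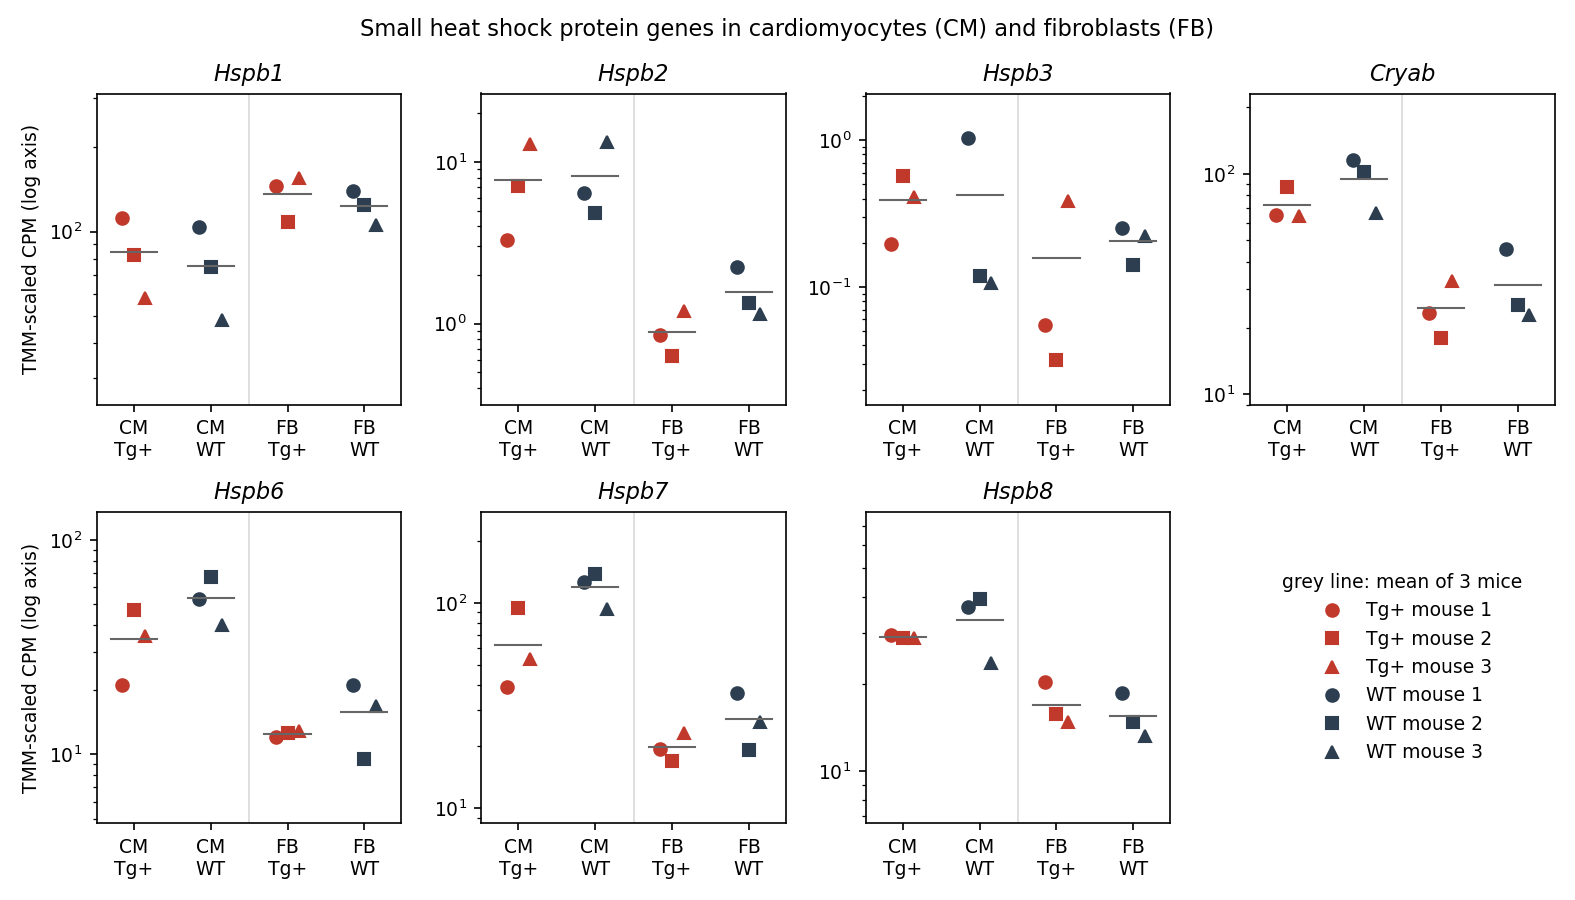
Level of each gene as TMM-scaled CPM (log axis, a different range in each panel) in Tg+ and Bag3-WT cardiomyocytes (CM) and in Tg+ and Bag3-WT fibroblasts (FB), 1 point per mouse and a grey line at the mean of 3 mice. Cryab, Hspb2, Hspb7 and Hspb8 stand higher in every cardiomyocyte column than in any fibroblast column, and Hspb1 runs the other way with overlap. The share of all genes that separate the cell types in this way was not counted.

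The make-up of the family differed between the preparations. Hspb1 made up 34.02 ± 9.80% of the summed CPM per kilobase of the 7 genes in cardiomyocytes and 72.0 ± 4.44% in fibroblasts (SD, n = 6). Cryab made up 29.3 ± 2.06% in cardiomyocytes and 12.7 ± 2.67% in fibroblasts. Hspb7 made up 12.6 ± 4.10% in cardiomyocytes and 4.38 ± 1.03% in fibroblasts. The mean share of every gene but Hspb1 was thus larger in cardiomyocytes, which also held for Hspb6 (12.6 ± 3.30% in cardiomyocytes and 5.38 ± 1.49% in fibroblasts). Hspb8 had 6.82 ± 0.748% in cardiomyocytes and 4.65 ± 0.716% in fibroblasts, and Hspb2 had 4.46 ± 3.10% in cardiomyocytes and 0.806 ± 0.279% in fibroblasts. The sum itself was 230 ± 31.2 CPM per kilobase in Tg+ and 278 ± 65.3 in Bag3-WT cardiomyocytes (n = 3 each), and 196 ± 34.5 in Tg+ and 193 ± 35.4 in Bag3-WT fibroblasts. These are descriptions, since a share falls whenever another gene of the family rises.

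**Figure D2:**
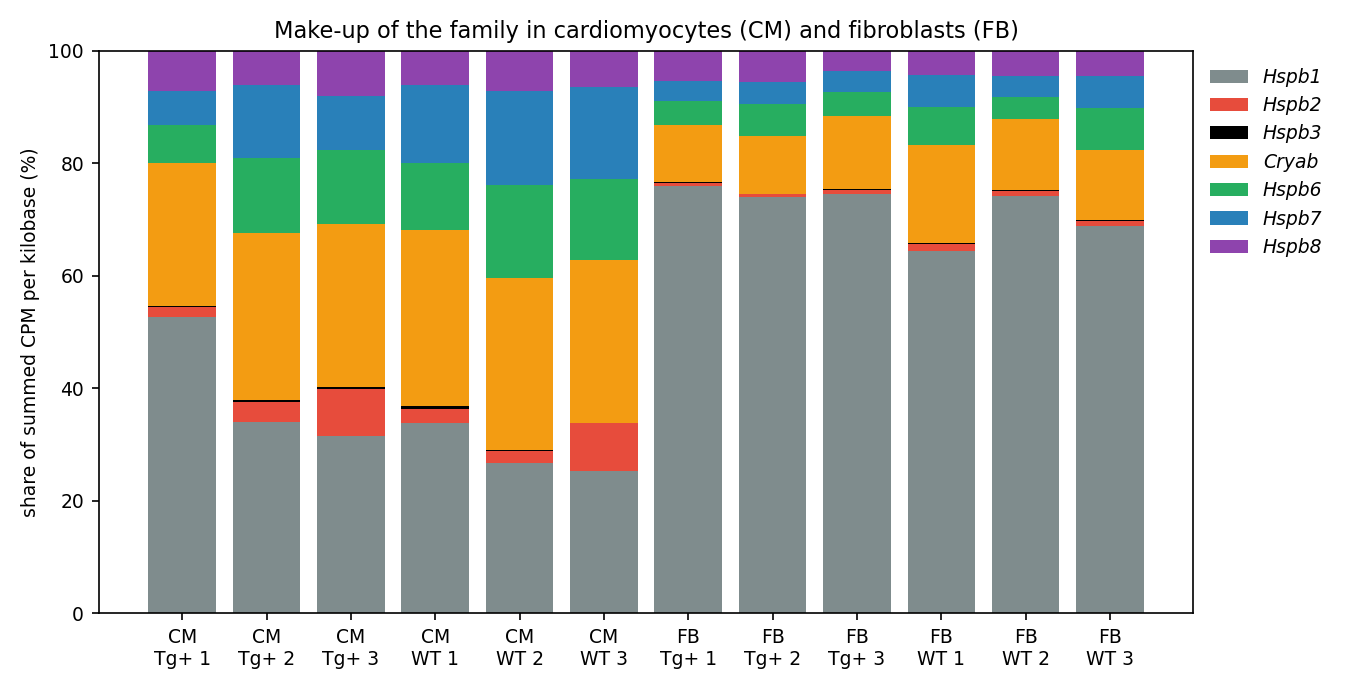
Share of each gene in the summed CPM per kilobase of the 7 genes (percent, stacked to 100) for each cardiomyocyte (CM) and fibroblast (FB) column, Tg+ mice before Bag3-WT mice. Hspb1 fills 25.4% to 52.6% of the cardiomyocyte columns and 64.4% to 76.0% of the fibroblast columns.

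The cell types were compared within mice, with cardiomyocytes over fibroblasts and the mouse as block, in edgeR's quasi-likelihood test over 13891 genes with Benjamini-Hochberg adjustment and a threshold of 0.05. Of all genes tested, 44.6% passed, 19.7% as higher and 24.9% as lower in cardiomyocytes. All 6 small heat shock protein genes that could be tested passed, 5 of them higher and 1, Hspb1, lower. With library size as the only scaling, which moves the median of all genes to −0.95 on the log2 scale, 3 of the 6 passed, Hspb2 and Hspb7 higher and Hspb1 lower. Of the 13891 genes, that scaling called 457 higher and 6616 lower. With TMM scaling the median log2 fold change (log2FC) of the 6 was 1.60, against −0.04 for all genes tested.

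Hspb1 encodes the mouse form of HSP27, a widely made and stress-inducible protein that binds actin and intermediate filaments. It had 112, 82.7 and 58.1 CPM in Tg+ and 104, 74.5 and 48.2 CPM in Bag3-WT cardiomyocytes, against 145, 108 and 156 CPM in Tg+ and 139, 125 and 106 CPM in Bag3-WT fibroblasts (mice 1 to 3 in each group). The columns of the cell types overlapped, but within every mouse Hspb1 was lower in the cardiomyocytes, by 0.37 to 1.42 on the log2 scale. Its fall of 1.68-fold (log2FC −0.74, standard error, SE, 0.20) passed with an edgeR adjusted p of 0.01255. Without Bag3-WT mouse 3 the adjusted p was 0.05082, with a log2FC of −0.67.

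Cryab encodes alphaB-crystallin, the chaperone best known for holding desmin. It had 65.4, 86.9 and 64.3 CPM in Tg+ and 116, 102 and 66.3 CPM in Bag3-WT cardiomyocytes, against 23.5, 18.0 and 32.6 CPM in Tg+ and 45.5, 25.5 and 22.9 CPM in Bag3-WT fibroblasts. Every cardiomyocyte column lay above every fibroblast column, and how many of all genes separated the cell types in this way was not counted. Cryab was 3.04-fold higher in cardiomyocytes (log2FC 1.60, SE 0.21, edgeR adjusted p = 0.0001392, higher in 6 of 6 mice).

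Hspb2, which encodes the partner of the myotonic dystrophy kinase DMPK and of HSPB3, showed the largest ratio of the 6. It had 3.28, 7.12 and 12.9 CPM in Tg+ and 6.38, 4.86 and 13.2 CPM in Bag3-WT cardiomyocytes. In fibroblasts it had 0.852, 0.631 and 1.19 CPM in Tg+ and 2.23, 1.33 and 1.15 CPM in Bag3-WT mice. No fibroblast column reached the lowest cardiomyocyte column, and the fibroblast columns held only 20 to 80 Hspb2 counts each. As for Cryab, the share of all genes separated in this way was not counted. The ratio was 6.15-fold (log2FC 2.62, SE 0.37, edgeR adjusted p = 0.0002529), and the difference within a mouse ran from 1.53 to 3.51 on the log2 scale.

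Hspb7 encodes the cardiovascular small heat shock protein of the thin filament. It had 38.8, 94.1 and 53.2 CPM in Tg+ and 126, 138 and 93.0 CPM in Bag3-WT cardiomyocytes, against 19.5, 16.9 and 23.4 CPM in Tg+ and 36.5, 19.1 and 26.2 CPM in Bag3-WT fibroblasts. The lowest cardiomyocyte column, Tg+ mouse 1, lay just above the highest fibroblast column, Bag3-WT mouse 1, and the share of all genes so separated was not counted. Hspb7 was 3.61-fold higher in cardiomyocytes (log2FC 1.85, SE 0.26, edgeR adjusted p = 0.0002631, 6 of 6 mice). Those same 2 columns also held the lowest summed cardiomyocyte markers of their preparation (1349 CPM, Tg+ mouse 1 cardiomyocytes) and the highest (1354 CPM, Bag3-WT mouse 1 fibroblasts), and the part of this in the result was not tested.

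Hspb6 encodes HSP20, a target of protein kinase A in heart and smooth muscle. It had 21.01, 47.1 and 35.7 CPM in Tg+ and 53.0, 67.4 and 39.8 CPM in Bag3-WT cardiomyocytes, against 12.0, 12.6 and 12.8 CPM in Tg+ and 21.02, 9.53 and 16.8 CPM in Bag3-WT fibroblasts. The cell types met at Tg+ mouse 1 cardiomyocytes and Bag3-WT mouse 1 fibroblasts. Within mice Hspb6 was higher in cardiomyocytes in 6 of 6 (log2FC 1.59, SE 0.25, edgeR adjusted p = 0.0005262). The gene overlaps Proser3 and Lin37 on the other strand, and since no strand setting of the counting is given, reads of any shared bases cannot be told apart.

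Hspb8, the partner of BAG3 in filamin turnover, differed least among the genes that rose. It had 29.5, 28.8 and 28.9 CPM in Tg+ and 36.8, 39.1 and 23.6 CPM in Bag3-WT cardiomyocytes, against 20.3, 15.8 and 14.8 CPM in Tg+ and 18.6, 14.8 and 13.3 CPM in Bag3-WT fibroblasts. All cardiomyocyte columns lay above all fibroblast columns, a separation whose share among all genes was not counted. The ratio was 1.91-fold (log2FC 0.93, SE 0.17, edgeR adjusted p = 0.001322, higher in 6 of 6 mice). With library size only its log2FC was 0.03 (adjusted p = 0.9553).

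Hspb3, whose protein pairs with HSPB2 in muscle, fell below the filter on low counts and was not tested. Its cardiomyocyte libraries held 0 to 6 counts each and its fibroblast libraries 1 to 11, for a total of 25 counts in cardiomyocytes and 34 in fibroblasts. Scaled for depth, this was 0.41 ± 0.36 CPM in cardiomyocytes and 0.18 ± 0.13 CPM in fibroblasts (SD, n = 6). The difference within a mouse, cardiomyocytes over fibroblasts, ran from −0.59 to 3.68 on the log2 scale. In the 2 cardiomyocyte libraries without a count, both rep1 libraries of Bag3-WT mice, 3 counts would have been 3.55 and 8.88 CPM of nuclear counts, which limits counting error only. A difference in Hspb3 was not detectable at this depth.

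**Figure D3:**
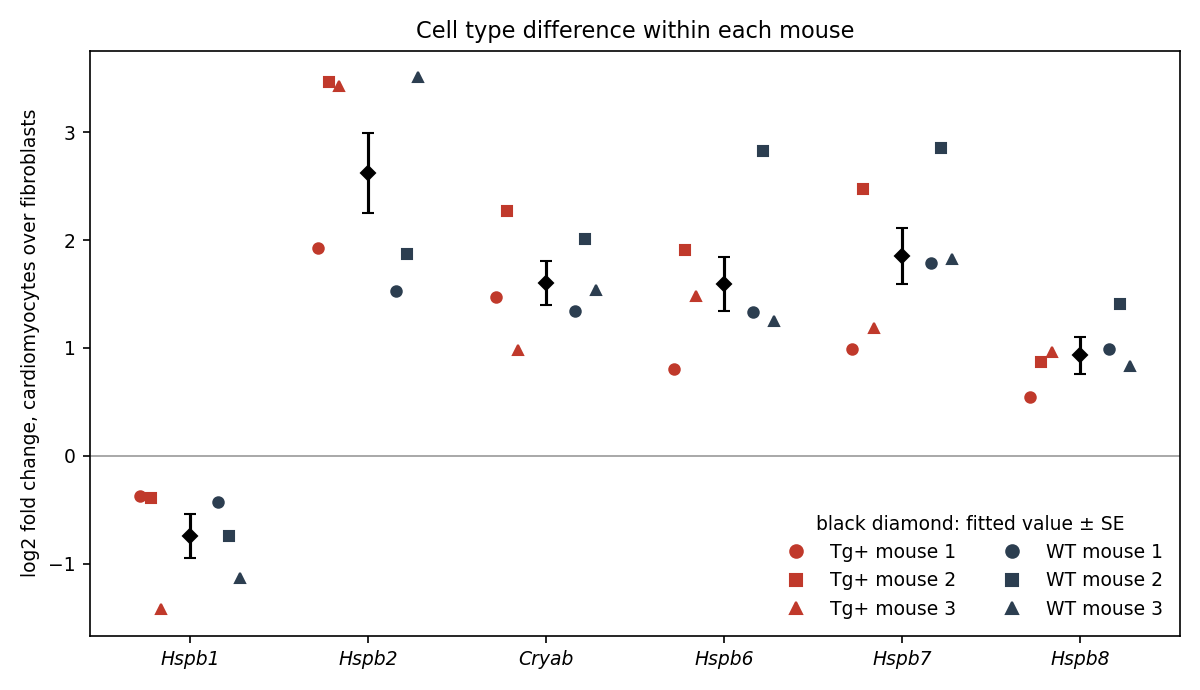
Log2 fold change of cardiomyocytes over fibroblasts within each mouse (small symbols, Tg+ mice left of Bag3-WT mice) and the fitted value with its SE (black diamonds) for the 6 genes tested. Hspb1 lies below 0 in all 6 mice, and the other genes above 0 in all 6.

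Since cardiomyocyte markers differed between preparations too, the genes were also set per 1000 counts of the 13 cardiomyocyte markers, a scale chosen after the data had been seen. All 13 markers were called higher in cardiomyocytes, by a median log2FC of 1.92. On this scale Cryab had 35.2 ± 12.2 counts in Tg+ and 29.7 ± 6.78 in Bag3-WT cardiomyocytes, against 35.2 ± 1.0 in Tg+ and 36.8 ± 5.21 in Bag3-WT fibroblasts (SD, n = 3 each). Hspb6 had 15.6 ± 2.12 in Tg+ and 16.6 ± 2.19 in Bag3-WT cardiomyocytes, against 18.7 ± 4.88 in Tg+ and 18.8 ± 5.33 in Bag3-WT fibroblasts. Hspb7 had 28.2 ± 7.73 in Tg+ and 37.3 ± 3.63 in Bag3-WT cardiomyocytes, against 29.2 ± 3.13 in Tg+ and 32.7 ± 6.02 in Bag3-WT fibroblasts. The ranges of these 3 genes overlapped between the preparations. Those of Hspb1 did not, with 45.5 ± 33.0 in Tg+ and 23.7 ± 8.44 in Bag3-WT cardiomyocytes, against 199 ± 22.7 in Tg+ and 157 ± 53.4 in Bag3-WT fibroblasts. The share of all genes without overlap on this scale was not counted.

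With the markers as the scale, Hspb1 was called lower in cardiomyocytes (log2FC −2.55, edgeR adjusted p = 1.205e-08) and so was Hspb8 (−0.86, adjusted p = 0.02653), while Cryab (−0.19), Hspb6 (−0.19), Hspb7 (0.06) and Hspb2 (0.85) did not pass. This scale moves the median of all genes to −1.84, and of 13891 genes tested it called 11179 lower and 168 higher. Other cell types moved with the cell type contrast as well. All 10 markers of smooth muscle and pericytes stood higher in cardiomyocytes (median log2FC 2.23, each called) and all 9 macrophage markers lower (median −2.37). The summed smooth muscle markers ran from 436 to 1838 CPM in cardiomyocytes and from 160 to 759 CPM in fibroblasts, with no gene of the list at 0. The summed macrophage markers ran from 385 to 1339 CPM in cardiomyocytes and from 1938 to 5980 CPM in fibroblasts. Smooth muscle is known to make Hspb1, Hspb6 and Cryab, and the part of these cells in the result was not tested.

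Hspb2 and Cryab lie beside each other on chromosome 9 in opposite directions. In GENCODE M21 (GRCm38), Hspb2 covers chr9:50751078-50752354 on the minus strand and Cryab chr9:50751325-50756636 on the plus strand. Their exons share 252 bases, 30.2% of the exonic bases of Hspb2 and 18.5% of those of Cryab, all through a single Cryab transcript (ENSMUST00000217475.1) of 5. Reads of the shared bases cannot be told apart without strand.

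Counts of Hspb2 per 100 counts of Cryab were 5.02, 8.19 and 20.1 in Tg+ and 5.52, 4.74 and 19.97 in Bag3-WT cardiomyocytes, against 3.63, 3.51 and 3.65 in Tg+ and 4.90, 5.23 and 5.02 in Bag3-WT fibroblasts. Mouse 3 of both genotypes stood apart in cardiomyocytes. The same 2 columns had the highest summed skeletal muscle markers, 1278 CPM in Tg+ mouse 3 and 1048 CPM in Bag3-WT mouse 3, against 61.0 to 498 CPM in the other cardiomyocyte columns. They also had the highest smooth muscle markers, 1838 CPM in Tg+ mouse 3 and 1615 CPM in Bag3-WT mouse 3. Of the 5 skeletal muscle markers tested by cell type, 2 were called higher, Acta1 (log2FC 5.68) and Ckm (1.74), which is a cardiomyocyte marker too. Tnnt3 (0.23, SE 0.81), Tnnc2 (0.50, SE 0.74) and Mylpf (−0.77, SE 0.76) were not called. That test ran over all 6 mice, so it cannot tell whether the mouse 3 columns held skeletal muscle cells. Whether cells with any of these markers carried the Hspb2 counts was not tested. The log2 ratio of Hspb2 to Cryab was −3.51 ± 0.97 in cardiomyocytes and −4.53 ± 0.26 in fibroblasts (difference 1.02 ± 1.03, SD, n = 6, exact sign-flip p = 0.0625, two-sided, higher in 5 of 6 mice).

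Between genotypes the ratio differed by 0.21 in cardiomyocytes (exact permutation p = 0.7, n = 3 each). In fibroblasts every Tg+ column lay below every Bag3-WT column, with a difference of −0.48 (exact permutation p = 0.1, the smallest that 3 against 3 mice can give). The exact 95% Poisson intervals of these columns, which cover the counting error of Hspb2 alone, spanned 2.14 to 5.42 in Tg+ and 3.41 to 7.13 in Bag3-WT fibroblasts and overlapped. Hspb1 per 100 counts of Cryab was 72.6 to 172 in cardiomyocytes and 306 to 618 in fibroblasts. Each of the 5 other genes tested rose relative to Hspb1 within 6 of 6 mice, by a mean of 1.68 (Hspb8) to 3.37 (Hspb2) on the log2 scale. Hspb1 itself was lower in cardiomyocytes (log2FC −0.74, against a median of −0.04 for all genes). The share of all genes that rose relative to Hspb1 was not counted.

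**Figure D4:**
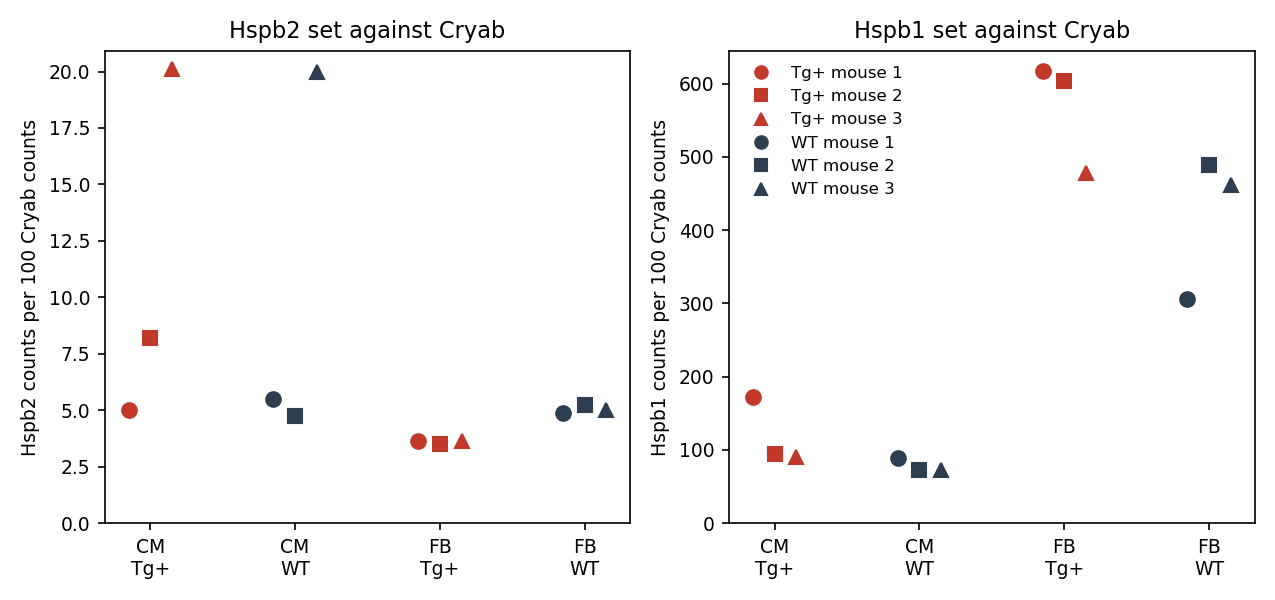
Counts of Hspb2 (left) and Hspb1 (right) per 100 counts of Cryab, 1 point per mouse, in Tg+ and Bag3-WT cardiomyocytes (CM) and fibroblasts (FB). Mouse 3 of each genotype stands at 20.1 (Tg+) and 19.97 (Bag3-WT) Hspb2 counts in cardiomyocytes, against 4.74 to 8.19 in the other 4.

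The question of the design was what the P209L transgene changed in each cell type. No small heat shock protein gene passed in either, and no other gene did. In cardiomyocytes 0 of 12439 genes were called (0%) by edgeR, with 89 (0.715%) at an unadjusted p under 0.05, 3 called by DESeq2 and 0 by limma voom. In fibroblasts 0 of 13571 were called (0%), with 690 (5.08%) at an unadjusted p under 0.05, 6 called by DESeq2 and 0 by voom. No member was among the DESeq2 calls. Bag3 itself had 61.9, 46.8 and 77.1 CPM in Tg+ and 131, 48.6 and 43.0 CPM in Bag3-WT cardiomyocytes, and its log2FC was −0.27 (SE 0.48, edgeR adjusted p = 0.9997). In fibroblasts its log2FC was 0.13 (SE 0.36, adjusted p = 0.9392), so the Bag3 counts did not separate the genotypes.

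Genotype values are CPM scaled within a cell type. Hspb7 stood at 28.6, 69.3 and 38.1 CPM in Tg+ and 93.1, 101.6 and 67.2 CPM in Bag3-WT cardiomyocytes. The groups overlapped narrowly, since Tg+ mouse 2 stood just above Bag3-WT mouse 3. Its log2FC of −0.95 (SE 0.41, 95% interval −1.88 to −0.016) had an unadjusted p of 0.04704 and an edgeR adjusted p of 0.9997. Without Tg+ mouse 1 the log2FC was −0.67 and without Tg+ mouse 2 it was −1.38. Scaled to library size only it was −0.17, a setting that moves the median of all genes to 0.84. Its share of the family was 9.60 ± 3.46% in Tg+ and 15.7 ± 1.59% in Bag3-WT cardiomyocytes (SD, n = 3 each).

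The cardiomyocyte markers lay the same way as Hspb7. All 13 had a log2FC below 0 between the genotypes in cardiomyocytes (median −0.63) and 0 were called, and their summed level was 1349 to 2644 CPM in Tg+ and 2791 to 3623 CPM in Bag3-WT cardiomyocytes. Per 1000 counts of these markers Hspb7 overlapped between genotypes, at 20.2 to 35.6 in Tg+ and 33.3 to 40.4 in Bag3-WT cardiomyocytes. The part of the markers in the Hspb7 values was not tested.

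Cryab stood at 48.3, 64.0 and 46.1 CPM in Tg+ and 85.5, 75.3 and 47.9 CPM in Bag3-WT cardiomyocytes, with Bag3-WT mouse 3 within the Tg+ range (log2FC −0.40, SE 0.34, edgeR adjusted p = 0.9997). Hspb6 stood at 15.5, 34.6 and 25.6 CPM in Tg+ and 39.2, 49.5 and 28.8 CPM in Bag3-WT cardiomyocytes, again overlapping at Bag3-WT mouse 3 (log2FC −0.63, SE 0.38). Hspb8 stood at 21.8, 21.2 and 20.7 CPM in Tg+ and 27.2, 28.7 and 17.1 CPM in Bag3-WT cardiomyocytes (log2FC −0.19, SE 0.31). The Tg+ values of Hspb8 lay within the Bag3-WT range. Hspb1 had a log2FC of 0.16 (SE 0.41, 95% interval −0.77 to 1.09) and Hspb2 one of −0.10 (SE 0.58, interval −1.42 to 1.23). Both intervals hold a 2-fold rise, and that of Hspb2 also a 2-fold fall.

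In fibroblasts Hspb2 lay furthest from 0. It stood at 1.17, 0.865 and 1.65 CPM in Tg+ and 2.96, 1.84 and 1.59 CPM in Bag3-WT fibroblasts, overlapping at Tg+ mouse 3 and Bag3-WT mouse 3 (log2FC −0.80, SE 0.39, unadjusted p = 0.07688, edgeR adjusted p = 0.7677). Hspb7 stood at 26.7, 23.2 and 32.4 CPM in Tg+ and 48.3, 26.3 and 36.3 CPM in Bag3-WT fibroblasts (log2FC −0.43, SE 0.25). Without Bag3-WT mouse 1, whose fibroblasts held the most cardiomyocyte markers, these values were −0.48 for Hspb2 and −0.18 for Hspb7. The values furthest from 0 with a mouse left out were −1.05 for Hspb2 (without Tg+ mouse 3) and −0.63 for Hspb7 (without Bag3-WT mouse 2). With the letter F or M of the animal code as covariate they were −1.03 for Hspb2 and −0.57 for Hspb7 (edgeR adjusted p = 0.7035 for both). Marker lists lay off 0 between the genotypes here too, with 0 genes called. Of the cardiomyocyte markers 12 of 13 had a log2FC below 0 (median −0.41), as had 9 of 9 macrophage markers (median −0.73), while 9 of 9 endothelial markers were above 0 (median 0.43). Their part in these values was not tested. Cryab (SE 0.31) and Hspb6 (SE 0.27) both had a log2FC of −0.32. Hspb1, the most abundant of the family there, had 0.16 (SE 0.21, 95% interval −0.33 to 0.65) and Hspb8 0.14 (SE 0.19).

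The median log2FC of the 6 genes was −0.30 in cardiomyocytes, against 0.01 for all genes, and −0.32 in fibroblasts, against 0.01 for all genes. With library size only, Cryab, Hspb2, Hspb6 and Hspb8 turned to positive values in cardiomyocytes and Cryab, Hspb6 and Hspb7 in fibroblasts. That scaling moved the median of all genes to 0.84 in cardiomyocytes and 0.36 in fibroblasts. No gene of the family separated the genotypes without overlap in either cell type, where 4.86% of all genes did in cardiomyocytes and 13.1% in fibroblasts. The interaction, in which the genotype effect in cardiomyocytes is set against that in fibroblasts, was called for 0 of 13891 genes (0%) by edgeR, 124 genes (0.893%) had an unadjusted p under 0.05, and DESeq2 called 1. Its values were 0.67 for Hspb2 (SE 0.73), −0.61 for Hspb7 (SE 0.51), −0.39 for Hspb6 (SE 0.51), −0.28 for Hspb8 (SE 0.36), −0.05 for Cryab (SE 0.44) and 0.05 for Hspb1 (SE 0.45), each with an edgeR adjusted p of 1.

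**Figure D5:**
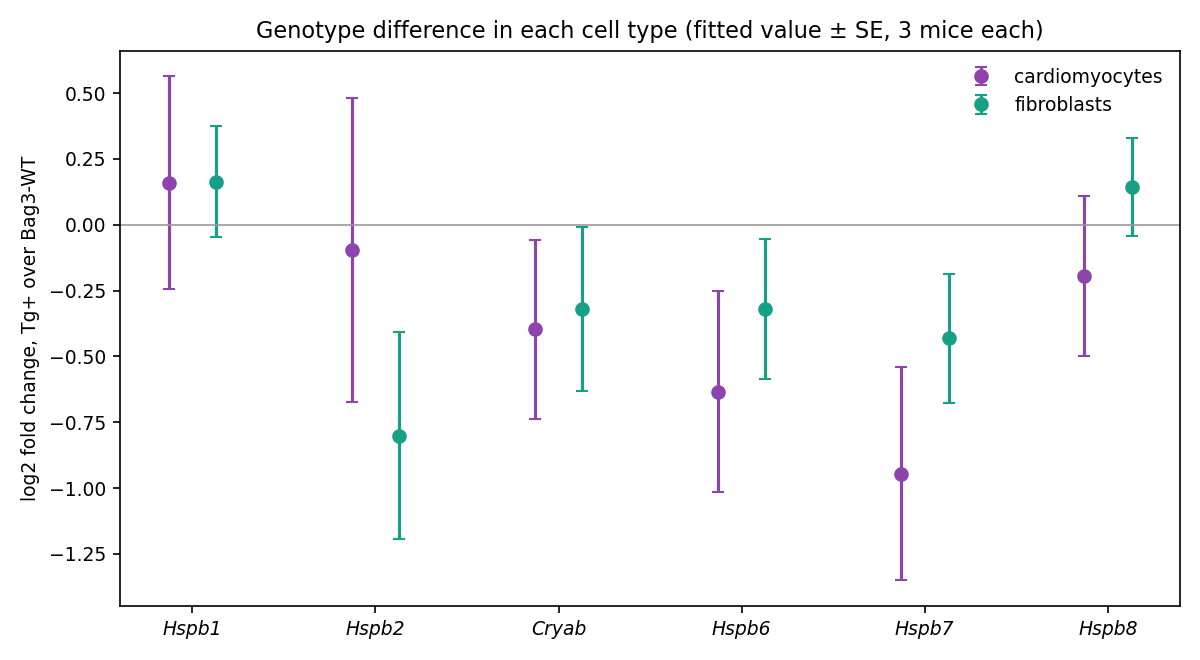
Log2 fold change of Tg+ over Bag3-WT mice with its SE for the 6 genes tested, cardiomyocytes left of fibroblasts, 3 mice per genotype. Hspb7 in cardiomyocytes (−0.95) and Hspb2 in fibroblasts (−0.80) lie lowest, and no value passed the adjusted threshold.

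Lists of other genes of the pathway were read against the 19.7% of all genes called higher and the 24.9% called lower in cardiomyocytes. Of 10 filament and Z-disc genes whose proteins small heat shock proteins bind, 8 were called higher and 0 lower in cardiomyocytes (median log2FC 1.77). They included Actn2, the Z-disc alpha-actinin (1.95, SE 0.25), Flnc, the filamin C that BAG3 and HSPB8 turn over (2.54, SE 0.34), and Actc1, cardiac actin (2.09, SE 0.29). Of 14 genes of the BAG3 complex and chaperone-assisted autophagy, 4 were called higher and 7 lower (median −0.75). Sqstm1, the autophagy receptor p62, was lower (−3.57, SE 0.24), as was Hspa1a, an inducible HSP70 (−1.89, SE 0.32). Stub1, the ubiquitin ligase CHIP of the complex, was higher (1.33, SE 0.24). Bag3 itself was lower in cardiomyocytes (−1.20, SE 0.34, edgeR adjusted p = 0.01525), in 5 of 6 mice. Its call was lost without Tg+ mouse 2 (log2FC −0.99, edgeR adjusted p = 0.05394) and without Bag3-WT mouse 3 (log2FC −1.08, adjusted p = 0.05713).

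Of 20 genes for HSF1, HSF2 and their heat shock targets, 4 were called higher and 6 lower (median 0.14), shares near those of all genes (19.7% and 24.9%). Besides Hspa1a, the lowest p among them were those of Fkbp4, a co-chaperone of HSP90 that was higher (1.175, SE 0.21), and Hspa8, the constitutive HSC70 that was lower (−0.93, SE 0.21). Hspb1 was lower in cardiomyocytes, while Cryab, another known HSF1 target, was higher. The list itself went both ways, with 11 of 20 genes above 0 and 9 below. Between genotypes 0 genes of these 3 lists were called in either cell type. Of the filament genes, 9 of 10 had a log2FC below 0 in cardiomyocytes (median −0.42) and 9 of 10 in fibroblasts (median −0.24), against 48.7% of all genes in each cell type. Actc1, Actn2 and Ttn of this list are cardiomyocyte markers too, a list whose median lay below 0 in both cell types, and the part of the markers in these values was not tested.

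Each member was set beside the genes most like it in log2 CPM over the 12 columns, by Pearson correlation among 8725 genes. These are descriptions, since all pairs share the cell type contrast and the libraries. Hspb7 was most like Ckm, muscle creatine kinase (r = 0.994), and Hspb6 most like Hspb7 (0.982). Cryab was most like the metabolic genes Mdh1 (0.989), Ldhb (0.985) and Pgam2 (0.983). Hspb2 was most like Trdn, the triadin of the calcium release unit (0.982), and Tpm1, a tropomyosin (0.980). Hspb1 was most like Adamtsl4 (0.964) and Calr, the endoplasmic reticulum chaperone calreticulin (0.949), and Hspb8 most like Fitm2, a lipid droplet gene (0.966). Within the family Hspb1 ran against the other 5 genes over these 12 columns, with r from −0.82 (Hspb2) to −0.51 (Hspb8). Over the 6 cardiomyocyte columns alone, with genotype means subtracted, this did not hold for all 5. There r with Hspb1 was −0.86 for Hspb2, −0.09 for Hspb6, 0.06 for Hspb7, and 0.67 for both Cryab and Hspb8.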

How the data were processed

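Poly(A) RNA of cardiomyocytes and cardiac fibroblasts from 3 Tg+ and 3 Bag3-WT mice was sequenced in 18 libraries, per the labels' protocols. A further sequencing round is mentioned for cardiomyocytes, and whether rep2 stands for it is not stated. Values in the deposited count table were expected counts (estimated by the authors per gene, 44.7% of them not whole). Of software, kallisto 0.44.0, R 3.4.4, DESeq2 1.18.1 and the build GRCm38.p6 are listed per the submitters' processing notes, with no role. A second deposited table held the authors' normalized signal and was used in an alternative only. Annotation, strand setting and filters: not given in the sources used here. Every column was mapped by its name.

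Expected counts of rep1 and rep2 were summed per mouse and rounded, which left 12 columns with the mouse as replicate. Every mouse had both repeat numbers, which therefore pair no mice. Tests used edgeR 4.0.16 in R 4.3.3 (filterByExpr, TMM, robust quasi-likelihood fits, two-sided, Benjamini-Hochberg adjustment over all genes tested, threshold 0.05). They were checked on counts simulated with less spread between mice than the genotype fit in cardiomyocytes found, which does not give its power. Cell type and the interaction were fitted over all 12 columns with the mouse as block, and genotype within each cell type. Intervals of log2FC took the t quantile at the degrees of freedom of the edgeR test. Alternatives used DESeq2 1.42.0 and limma 3.58.1. Ratios of counts added 0.5 to each count. Marker and pathway lists (12) and the members were chosen with earlier results of these data known. Named by rule were the members, Bag3, the 3 genes of lowest p in a list with calls and the 3 genes most like a member (mean of at least 5 CPM, prior count 1); not every such gene is reported here. Animal codes hold the letter F or M, unevenly over the genotypes, and the letter entered an alternative fit only.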

Additional observations from a re-analysis of the deposited data

How the results depend on the processing

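No member was called by genotype or for the interaction under any alternative run, and the cell type calls held for all 6 in edgeR with RLE scaling, without mitochondrial genes, without a filter, in rep1 or rep2 libraries alone, without the mouse block, in DESeq2, in voom and on the authors' normalized table. Members called by cell type were 3 with library size only and 2 scaled to cardiomyocyte markers (chosen after seeing the data), and 5 to 6 with a mouse left out. In splits also added later, 4 were called in Tg+ mice alone (edgeR adjusted p = 0.2469 for Hspb1, 0.1169 for Hspb8) and 5 in Bag3-WT mice alone (0.06638 for Hspb1), and Bag3 passed in neither (0.1213 in Tg+, 0.1106 in Bag3-WT mice). Genes called by cell type, 6190 in all, were 11347 scaled to the markers, 1628 in Tg+ and 3777 in Bag3-WT mice alone, and 457 higher against 6616 lower with library size only (2734 against 3456). By genotype, 2 genes in each cell type were called with library size only, 3 in cardiomyocytes and 6 in fibroblasts by DESeq2, and 1 and 2 scaled to the markers, against 0. For the interaction 1 was called with library size only and 1 by DESeq2, against 0. With library size only, the genotype log2FC in cardiomyocytes reversed for Cryab (0.51), Hspb2 (0.32), Hspb6 (0.13), Hspb8 (0.73) and Bag3 (0.71), in fibroblasts for Cryab (0.17), Hspb6 (0.15) and Hspb7 (0.028), and the interaction for Cryab (0.26) and Hspb8 (0.019). Scaled to the markers, it reversed in cardiomyocytes for Cryab (0.25), Hspb2 (0.30), Hspb8 (0.50) and Bag3 (0.39), and the cell type value for Cryab (−0.19), Hspb6 (−0.19) and Hspb8 (−0.86). The Cryab interaction was 0.007 without mitochondrial genes and 0.13 in rep1 libraries, where the genotype difference in the ratio of Hspb2 to Cryab in cardiomyocytes was −0.50. The cause of these reversals was not tested. With library size only, the median log2FC of all genes was 0.84 in cardiomyocytes, 0.36 in fibroblasts and 0.30 for the interaction. Scaled to the markers, it was 0.67 by genotype in cardiomyocytes and −1.84 by cell type. Ranges with a mouse left out that crossed 0 were Hspb1 (−0.088 to 0.49), Hspb2 (−0.65 to 0.43), Bag3 (−0.55 to 0.45) and the log2 ratio of Hspb2 to Cryab (−0.33 to 0.87) by genotype in cardiomyocytes, Hspb8 (−0.0029 to 0.28), Bag3 (−0.20 to 0.43) and Cryab (−0.56 to 0.033) in fibroblasts, and Cryab (−0.40 to 0.25), Hspb1 (−0.14 to 0.39) and Hspb6 (−0.68 to 0.11) for the interaction. Library numbers rep1 and rep2 recur across genotypes, and every mouse has both, so they pair no mice. Deviations of same-numbered libraries of unlike genotype correlated at a mean of 0.02 (−0.44 to 0.41), against −0.005 for other numbers. Whether libraries of a number share an effect was not tested. With the repeat number as a replicate block in a mixed model over 12 libraries, Hspb7 in cardiomyocytes was −1.03 (limma adjusted p = 0.9997) and 0 genes were called. Depth limited Hspb3, which the low count filter removed and which was not called without it, and Hspb2 in fibroblasts, with 20 to 80 counts per column. The mean shares of the members by group were also taken from the authors' normalized table and from counts without division by length. Of these alternatives, 38 stayed within the SD between mice of the main value and 18 moved further.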

Other observations

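Of 4 other genes with an alpha-crystallin or related domain, Hspb9 and Hspb11 were in the table, and Cryaa and Odf1 are not analysed here. Hspb9, a gene of the testis, had 3 counts over the cardiomyocyte columns, all in 1 Bag3-WT mouse, and 4 to 16 counts in each fibroblast column. Hspb11, which encodes the ciliary transport protein IFT25, averaged 1.27 ± 0.520 CPM in the Tg+ cardiomyocytes, against 2.55 ± 0.756 CPM in those of Bag3-WT mice (SD, n = 3 each), and 1.010 ± 0.465 CPM in the Tg+ fibroblasts, against 1.05 ± 0.252 CPM in those of Bag3-WT mice. Between genotypes its log2FC was −0.99 in cardiomyocytes (SE 0.65, edgeR adjusted p = 0.9997) and −0.04 in fibroblasts (SE 0.45, adjusted p = 0.9854), and neither passed. By cell type it was 0.85 (SE 0.47, edgeR adjusted p = 0.161).

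The rep1 and rep2 libraries of a mouse gave close values for Cryab, Hspb6 and Hspb7. The log2 ratio of rep1 over rep2, in CPM of nuclear counts, ran from −0.19 to 0.19 for Cryab, −0.28 to 0.00 for Hspb6 and −0.24 to 0.05 for Hspb7 over 6 mice. Hspb2 ran from −1.19 in Tg+ mouse 1, with 5 counts in rep1 and 77 in rep2, to 1.00 in a Bag3-WT mouse. Hspb1 ran from −0.10 to 0.73, with Tg+ mouse 3 highest.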
